A study of Mus musculus with 4 samples.

Results

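The acrosome is the secretory vesicle that caps the sperm nucleus, and 10 genes for its contents, its membranes and its assembly were followed in whole testes of Dis3 knockout and control mice at postnatal day 17. The genes were chosen by symbol and each matched 1 of the 54232 rows of the gene table. They were Acr, Acrv1, Acrbp, Spaca1, Zpbp, Zpbp2, Spink2, Spata16, Dpy19l2 and Gopc, spread over 8 chromosomes. The tested group held 2 libraries from mice labelled Dis3 KO (KO), which the study describes as a conditional knockout, and the control group held 2 libraries from mice labelled Dis3 WT (WT). All came from B6D2F1 mice of the same age, and neither the Cre driver nor the number of animals behind a library was stated in the labels. The product of Dis3 is a catalytic subunit of the exosome, which degrades RNA from the 3′ end. The comparison addressed which genes differ between knockout and control testes.

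The acrosome grows from Golgi-derived vesicles that fuse on the nuclear envelope of the spermatid, the haploid cell that follows meiosis. Many of its protein products are stored until the sperm reaches the egg, when the vesicle opens and its enzymes and binding proteins are exposed. Transcription of several acrosomal genes is known to start in pachytene spermatocytes, in mid-meiotic prophase, and their mRNAs are carried into the spermatid.

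The gene table held 17663416 and 19255782 reads in KO replicates 1 and 2, and 31031920 and 40329170 reads in WT replicates 1 and 2. Levels are counts scaled to library size after TMM, a correction for composition (CPM), or the same per kilobase of exon (RPKM), and a group is given as mean ± SD with n = 2. Log2 fold changes are KO over WT ± SE from edgeR's quasi-likelihood test. Whether each library came from its own animal is not stated, so the p-values rest on variation among these 4 libraries, which may be technical. The targeted gene stood at 39.6 and 42.9 CPM in KO, against 80.2 and 80.7 CPM in WT (log2 fold change -0.96 ± 0.0729), over all its exons and all testis cells. The regions upstream of 14248 untested autosomal genes gave a background of 3.01 and 3.39 reads per kilobase of one strand in KO replicates 1 and 2, and of 2.70 and 2.53 in WT replicates 1 and 2.

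At this age 9 of the 10 genes were read well above that background, and 1 was not. Over the 4 libraries together the 9 held between 29.1 times (Spaca1) and 2396 times (Spink2) the background reads for their length. Acrv1, which encodes an acrosomal vesicle protein, held 1.18 times. Its reads were 8 and 21 in KO replicates 1 and 2, where background alone gives 11.0 and 12.4, and 13 and 8 in WT replicates 1 and 2, where it gives 9.86 and 9.23. Transcription of Acrv1 was therefore not detectable above background at this depth, and the description of the group as transcribed before spermatids appear did not hold for it.

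Spermatid markers showed how far the testes had developed. Of 20 listed, 19 held fewer than 5 times the background reads, and the median over the list was 1.87 times. The transition protein and protamine genes Tnp1, Tnp2, Prm1, Prm2 and Prm3, which pack the spermatid nucleus, reached at most 7 reads in any library. The other marker, Txndc2, a sperm thioredoxin gene, held 5.34 times background. The summed level of the list was 9.11 and 10.8 CPM in KO, against 7.04 and 6.70 CPM in WT. These sums include background reads, which were more frequent per gene read in KO. Their part in the difference was not tested. The median log2 fold change was 0.61 over the 8 markers tested. After background was subtracted, 4 markers were tested and 0 rose. Their median was 0.06 at the library scale as counted and 0.19 with TMM computed anew. Catsper4 and H1fnt passed the test on the counts as deposited as higher in KO, at 1.14 and 1.90 times background. Catsper4 had 10 and 11 reads in KO, against 3 and 4 reads in WT. H1fnt had 13 and 9 reads in KO, against 5 and 2 reads in WT. Neither gene was among those tested after background was subtracted. Neither passed when any 1 of the 4 libraries was left out, and DESeq2 gave neither an adjusted p. Without WT replicate 1 a different marker, Akap4, passed as higher in KO (edgeR adjusted p = 0.0491), with 6 and 20 reads in KO, against 14 and 4 reads in WT.

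**Figure D1:**
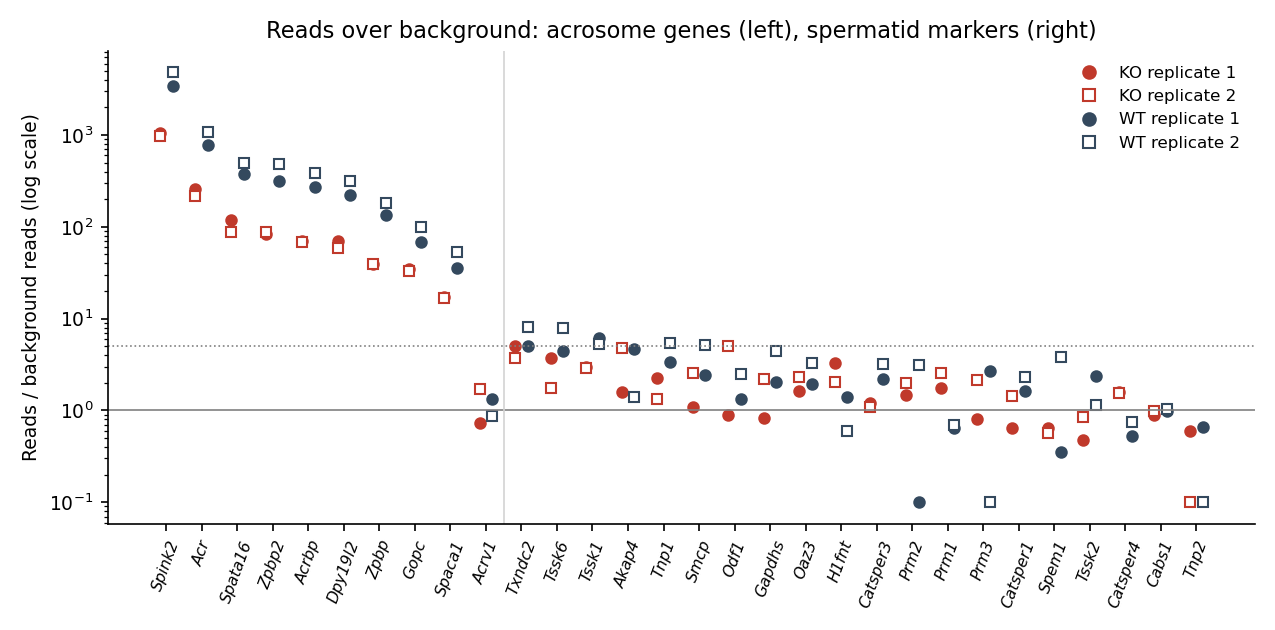
Reads of each gene divided by the background reads expected for its length (log axis), per library, for the 10 acrosome genes (left) and 20 spermatid markers (right). The solid line marks background, the dotted line 5 times background, and libraries with 0 reads are drawn at 0.1. The acrosome genes lie far above background except Acrv1, which lies among the spermatid markers.

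Per length, the levels in WT ran from Spink2 at 318 ± 6.09 RPKM through Acr (71.7 ± 0.387), Spata16 (33.9 ± 0.707), Zpbp2 (30.6 ± 2.80), Acrbp (25.3 ± 1.02), Dpy19l2 (20.8 ± 0.622), Zpbp (12.2 ± 0.218), Gopc (6.43 ± 0.193) and Spaca1 (3.40 ± 0.192) to Acrv1 (0.0892 ± 0.0444). No neighbours in this order overlapped between the WT libraries, though the lowest value of Spata16 (33.4 RPKM) and the highest of Zpbp2 (32.6 RPKM) were close. In KO the order of the means was the same, and Acrbp and Dpy19l2 overlapped. In WT, Spink2 was above 99.5% of the 16633 tested genes that held at least 5 times background, and Spaca1 above 37.3% of them. Lengths are those of all annotated exons together, which lowers the value of genes with rarely used exons, such as Gopc with 10958 bases.

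**Figure D2:**
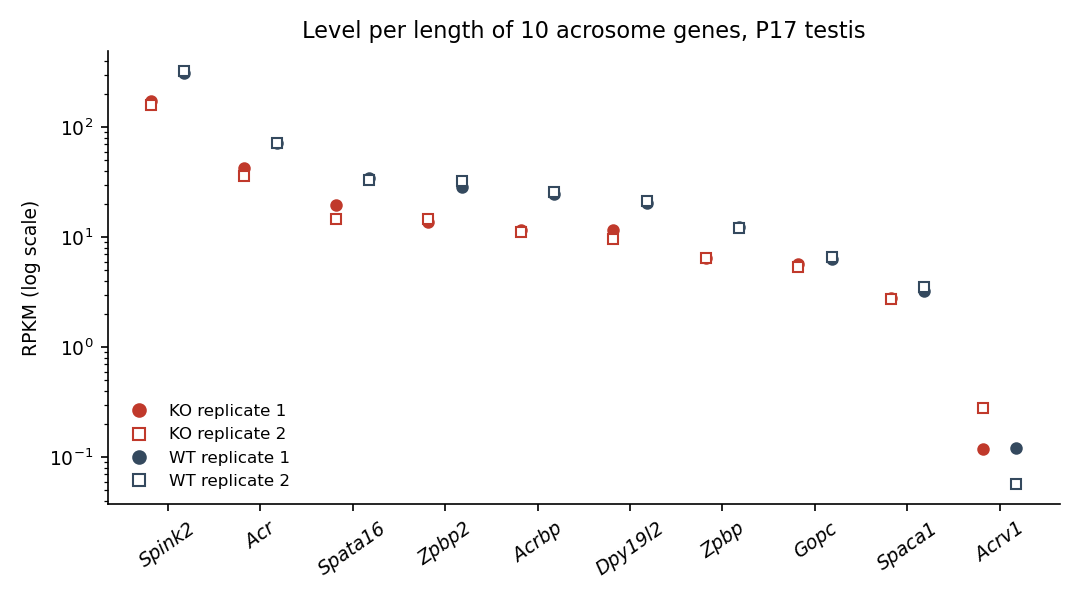
Level per length (RPKM, log axis) of the 10 acrosome genes in each library, ordered by the WT mean. In 9 genes both KO libraries lie below both WT libraries, and in Acrv1 the groups overlap.

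Of the 10 genes, 8 fell in KO, 0 rose and 2 did not pass the test. Over all 25076 genes tested, 20.3% fell and 11.6% rose at the same threshold (adjusted p of 0.05), and of the genes at 5 times background or more, 30.5% fell and 8.43% rose. None rose at an unadjusted p of 0.05 either, and DESeq2 gave 8 lower and 0 higher. The median log2 fold change was -0.92 over the 10 genes, 0.05 over all genes tested and -0.12 over those at 5 times background. In 9 of the 10 genes both KO libraries lay below both WT libraries, as was the case in 32.7% of all genes tested. The falls formed a narrow band of 7 genes between -1.14 and -0.88, with Gopc and Spaca1 apart from it at -0.20 and -0.29.

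The genes for the protease system of the acrosome fell together. Acr encodes acrosin, the serine protease that is stored as an inactive precursor. It lies on GRCm38 chromosome 15 from 89568326 to 89574585, on the plus strand. It had 66.4 and 56.0 CPM in KO, against 112 and 113 CPM in WT, so that KO libraries held 54.5% of the WT mean (log2 fold change -0.88 ± 0.0736, edgeR adjusted p = 1.03e-08). Acrbp encodes the protein that binds this precursor and helps to pack it into granules (chromosome 6, 125049689 to 125063267, plus strand). It had 38.3 and 36.9 CPM in KO, against 80.4 and 85.1 CPM in WT, the lowest log2 fold change of the 10 (-1.14 ± 0.0734, edgeR adjusted p = 2.11e-10). An annotated transcript, Gm44597, overlaps Acrbp on the same strand, so that reads in exons of both may be missing from its count. Spink2, the gene of a Kazal-type inhibitor that guards against early acrosin activity (chromosome 5, 77205107 to 77211471, minus strand), had 135 and 126 CPM in KO, against 247 and 254 CPM in WT (-0.94 ± 0.0609, edgeR adjusted p = 2.38e-10). The groups were apart for each of these genes, and the gap between them exceeded the spread within either group.

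The paralogous genes for zona pellucida binding proteins of the acrosomal matrix fell as well. Zpbp (chromosome 11, 11279626 to 11462408, minus strand) had 27.8 and 27.7 CPM in KO, against 52.6 and 51.3 CPM in WT (log2 fold change -0.90 ± 0.0807, edgeR adjusted p = 1.67e-08). Zpbp2 (chromosome 11, 98551097 to 98558665, plus strand) had 23.2 and 24.5 CPM in KO, against 48.1 and 54.8 CPM in WT (-1.11 ± 0.0888, edgeR adjusted p = 4.09e-09). KO libraries thus held 53.4% of the WT mean of Zpbp and 46.3% of that of Zpbp2, and whether these shares differ was not tested.

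Of the genes for the membranes and for assembly, Spata16 and Dpy19l2 fell in the same range as the protease genes. Spata16 encodes a protein of the Golgi and of the vesicles that build the acrosome, and its loss in humans is a cause of round-headed sperm without an acrosome. It lies on chromosome 3 from 26637620 to 26983212, on the plus strand, and had 41.4 and 30.7 CPM in KO, against 72.7 and 70.6 CPM in WT (log2 fold change -0.99 ± 0.102, edgeR adjusted p = 2.26e-06). The KO libraries differed more from each other here than the WT libraries did, but both were below both WT libraries. Dpy19l2 encodes an inner nuclear membrane protein that anchors the acrosome to the nucleus (chromosome 9, 24557047 to 24696293, minus strand). It had 39.7 and 33.2 CPM in KO, against 70.2 and 73.2 CPM in WT (-0.98 ± 0.0824, edgeR adjusted p = 8.27e-09).

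Gopc and Spaca1 gave smaller values. Gopc encodes a Golgi-associated PDZ protein that many tissues make and that mice need for acrosome formation (chromosome 10, 52335850 to 52382124, minus strand). Gm6627 and Gm47580 overlap it on the same strand. It had 63.0 and 59.3 CPM in KO, against 68.9 and 71.9 CPM in WT, or 86.8% of the WT mean (log2 fold change -0.20 ± 0.0701, edgeR adjusted p = 0.0285). This call was not stable: the adjusted p was 0.168 without WT replicate 2, 0.0547 without KO replicate 2, 0.112 with genes of at least 1 CPM in 2 libraries, 0.304 after background was subtracted with TMM computed anew, and 0.582 when libraries were scaled to total gene reads, over a range of 0.000272 to 0.582 in 13 alternatives. The size without composition scaling was -0.05. Spaca1, the gene of a membrane protein that mice need to shape the acrosome (chromosome 4, 34024874 to 34050191, minus strand), had 4.50 and 4.42 CPM in KO, against 5.21 and 5.64 CPM in WT. These rest on 82 and 91 reads in KO and 154 and 214 reads in WT. Its groups were apart, and its log2 fold change of -0.29 ± 0.185 did not pass (edgeR adjusted p = 0.242). Acrv1 (chromosome 9, 36693220 to 36698843, plus strand) had 0.439 and 1.02 CPM in KO, against 0.440 and 0.211 CPM in WT, and its fitted log2 fold change of 1.20 ± 0.613 (edgeR adjusted p = 0.137) rests on reads at background.

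**Figure D3:**
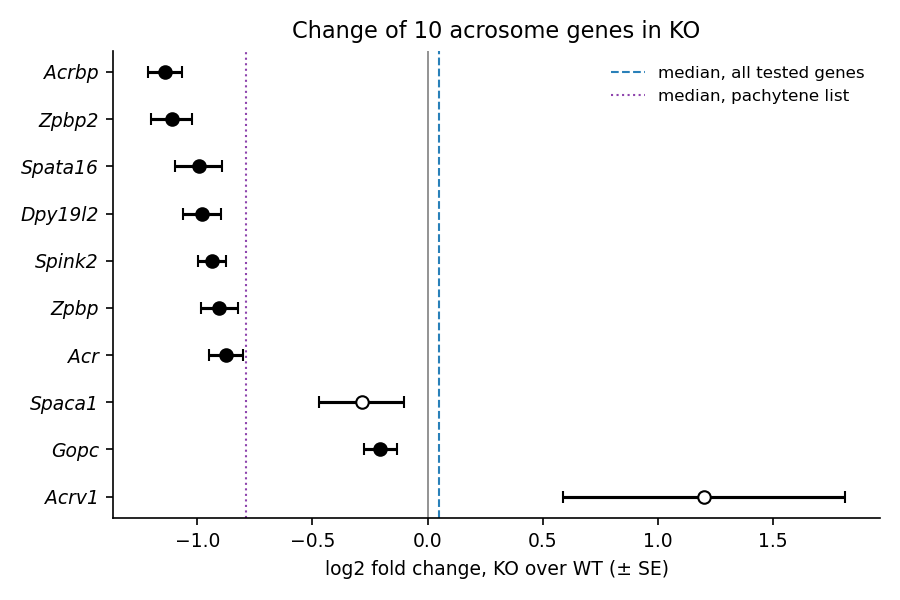
Log2 fold change (KO over WT, ± SE) of the 10 acrosome genes, filled where the edgeR adjusted p was under 0.05. Dashed and dotted lines mark the medians of all tested genes (0.05) and of the pachytene list (-0.79). The falls of 7 genes lie between -1.14 and -0.88, while Gopc, Spaca1 and Acrv1 lie to the right.

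RefSeq promoter windows of GRCm38.p6 were found for 9 of the 10 genes, Acr being the exception. The 250 bases before the RefSeq start were read on the strand of the gene. Shown are the gene with the highest level (Spink2), a matrix gene with a fall of over 1 on the log2 scale (Zpbp2), the gene with the smallest called change (Gopc) and the gene at background (Acrv1), with CpG dinucleotides in capitals. The windows are chr5:77211472-77211721 on the minus strand for Spink2, chr11:98550847-98551096 on the plus strand for Zpbp2, chr10:52382125-52382374 on the minus strand for Gopc and chr9:36692970-36693219 on the plus strand for Acrv1.
Spink2: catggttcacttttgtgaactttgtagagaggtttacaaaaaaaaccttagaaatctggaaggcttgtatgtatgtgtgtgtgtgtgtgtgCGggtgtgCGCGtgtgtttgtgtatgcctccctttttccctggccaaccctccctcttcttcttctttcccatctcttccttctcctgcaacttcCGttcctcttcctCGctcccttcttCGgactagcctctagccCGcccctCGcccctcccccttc
Zpbp2: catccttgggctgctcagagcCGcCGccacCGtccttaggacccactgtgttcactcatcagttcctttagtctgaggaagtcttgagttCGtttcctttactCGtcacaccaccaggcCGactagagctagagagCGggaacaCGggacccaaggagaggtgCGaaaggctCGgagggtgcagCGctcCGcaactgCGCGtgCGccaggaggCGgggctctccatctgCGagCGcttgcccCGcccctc
Gopc: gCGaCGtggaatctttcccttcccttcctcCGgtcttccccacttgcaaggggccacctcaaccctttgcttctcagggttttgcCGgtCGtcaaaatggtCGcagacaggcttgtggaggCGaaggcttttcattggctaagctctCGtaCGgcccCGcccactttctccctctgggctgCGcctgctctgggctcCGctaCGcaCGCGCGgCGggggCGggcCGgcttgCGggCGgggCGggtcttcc
Acrv1: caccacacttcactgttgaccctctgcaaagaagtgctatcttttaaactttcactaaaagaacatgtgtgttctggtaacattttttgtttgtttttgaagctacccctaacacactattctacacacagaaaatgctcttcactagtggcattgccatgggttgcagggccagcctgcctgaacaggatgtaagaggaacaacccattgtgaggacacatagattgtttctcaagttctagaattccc
Acrv1 had 0 CpG dinucleotides in this window, and the other genes with a window had between 4 (Zpbp) and 22 (Gopc), with 8 in Spink2 and 19 in Zpbp2. The median over 32817 RefSeq windows of the same length was 6. The core of the cAMP response element, TGACG, was searched on both strands and found in 4 of the 9 windows (Zpbp2, Acrbp, Gopc and Spaca1), against 17.7% of all windows, and the full element TGACGTCA, which contains it, in 0 of 9, against 1.55%. The RFX X-box core GTTGCC was found in 1 (Acrbp), against 10.4% of all windows. The MYB core AACNG was found in 7 of 9, against 74.2% of all windows, the longer AACNGTT in 0, against 3.80%, and the TATA box TATAAA in 0, against 12.4%. Matches are descriptions of the letters in these windows. The RefSeq start of Acrbp lay 238 bases, and that of Spaca1 124 bases, downstream of the start of the counted gene. Their windows thus lie partly within the gene as counted.

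The deposited tables of reads in the 3000 bases upstream of genes hold a region for 6 of the 10 genes, namely Acr, Spaca1, Zpbp2, Spink2, Spata16 and Dpy19l2. On the strand of the gene, counts per region lay between 5 and 16 reads in KO, against 6 and 29 reads in WT. On the opposite strand the region of Acr stood highest, with 47 and 47 reads in KO, against 56 and 73 reads in WT, and the other regions held 9 to 25 reads in KO, against 3 to 25 reads in WT. None of the 6 regions passed the edgeR test on either strand. At an unadjusted p of 0.05, 1 region passed on the gene's strand and 3 on the opposite strand, and DESeq2 called 0 on each, with 0 and 1 at an unadjusted p of 0.05. Over all regions tested, 0.0% were lower and 0.0166% higher on the gene's strand, and 0.0875% were lower and 8.56% higher on the opposite strand. Log2 fold changes on the opposite strand ran from 0.34 (Acr) to 1.82 (Zpbp2), beside a median of 0.99 over all tested regions. The region upstream of Spink2 on the gene's strand was the one whose fitted value was below 0 (-0.78 ± 0.524, edgeR adjusted p = 0.305). It had 5 and 14 reads in KO, against 27 and 29 reads in WT. Over all tested regions on the gene's strand the median was 0.90. The background on these tables per gene read was higher in KO, and its part in these values was not tested.

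Other acrosome genes split in the same way into read and unread. Of 51 further genes in 4 lists, 26 held fewer than 5 times background. Of the 35 tested, 19 fell, 0 rose and 16 did not pass, with a median of -0.30. At an unadjusted p of 0.05, 1 was higher, and DESeq2 gave 19 lower and 0 higher. The 19 that fell were all among the 24 tested genes at 5 times background or more, whose median was -0.41. Of all genes at that level 30.5% fell. The list of Golgi and vesicle traffic supplied 13 of the 24 genes and 11 of the 19 that fell. With libraries scaled to total gene reads 13 fell, and with libraries scaled to Sertoli cell genes 22 fell.

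Among 11 genes for the acrosomal matrix and its enzymes, 6 were tested and 4 fell. Crisp2, a cysteine-rich protein of the acrosome and tail, had 184 ± 8.06 CPM in KO and 371 ± 22.8 CPM in WT (log2 fold change -1.01 ± 0.0632). Pcsk4, a proprotein convertase of germ cells, had 18.9 ± 1.30 CPM in KO and 34.3 ± 2.98 CPM in WT (-0.87 ± 0.0987). The serine protease gene Prss39 (-0.88 ± 0.156) and Spesp1, which encodes a protein of the equatorial segment (-0.51 ± 0.11), fell too. The hyaluronidase genes Spam1 and Hyal5 and the zona binding gene Zp3r lay at 1.74, 0.913 and 1.42 times background.

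Of 12 genes of the acrosomal membrane and of gamete fusion, 6 were tested and 1 fell, Izumo4, with 8.90 ± 1.39 CPM in KO and 16.3 ± 1.72 CPM in WT (-0.88 ± 0.136). Izumo1, the sperm partner of the egg receptor, lay at 1.84 times background, and 9 of the 12 held fewer than 5 times. Spaca6, a gamete fusion gene read at 11.6 times background, did not pass (0.30 ± 0.15), nor did Cd46 (0.66 ± 0.352) and Dcst1 (0.18 ± 0.533), both under 2 times background. Of 15 genes of the acroplaxome, perinuclear theca and nuclear envelope, 10 were tested and 3 fell, with a median of -0.14. The median was above 0 with total gene reads (0.01), DESeq2 (0.03) and no filter (0.07). It was also above 0 without KO replicate 1 (0.14), KO replicate 2 (0.07) or WT replicate 1 (0.05). In the other alternatives it was below 0. It was -0.57 over the 5 genes with at least 1 CPM in 2 libraries. After background was subtracted it was -0.71 at the library scale as counted and -0.59 with TMM anew, over 6 genes each. Over the 5 genes at 5 times background or more it was -0.64. Over all genes tested 20.3% fell, so the shares of the tested membrane and acroplaxome genes that fell lie near the background. Among genes at 5 times background or more, 1 of 2 membrane and 3 of 5 acroplaxome genes fell, against 30.5% of all such genes. The 3 were the actin-like genes Actl7b (-1.24 ± 0.137) and Actl9 (-0.64 ± 0.131), and Ccdc62 (-0.74 ± 0.0816). The calicin gene Ccin, at 2.43 times background, did not pass (0.92 ± 0.558), nor did Sun3, a nuclear envelope gene, at -0.64 ± 0.253.

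All 13 genes of Golgi and vesicle traffic were read, and 11 fell, with a median of -0.31. Tmf1, a Golgi matrix gene, had 200 ± 5.10 CPM in KO and 269 ± 9.07 CPM in WT (-0.43 ± 0.0595). Golga3 (-0.41 ± 0.0596), Sec23ip (-0.31 ± 0.0617) and Vps13b (-0.26 ± 0.0644) fell likewise, and Vps54 (-0.11 ± 0.0681) and Pick1 (-0.34 ± 0.151) did not pass. With libraries scaled to Sertoli cell genes all 13 fell (median -0.45). After background was subtracted, 12 fell at the library scale as counted and 5 with TMM anew. With total gene reads as the scale, 5 of the 13 fell and the median was -0.16. Falls over all genes tested were fewer too with total gene reads and with TMM anew. They numbered 2949 of 25076 with total gene reads and 3407 of 20101 with TMM anew, against 5092 of 25076 with TMM on the counts as deposited.

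**Figure D4:**
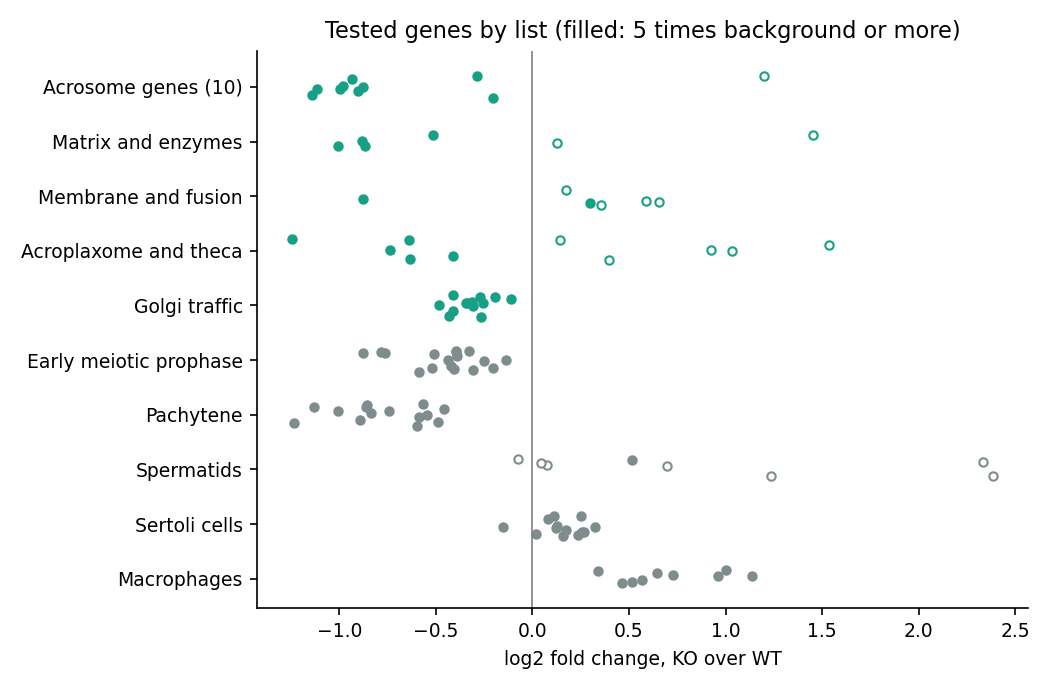
Log2 fold change (KO over WT) of each tested gene by list, with the 10 acrosome genes and 4 further acrosome lists in green and cell type markers in grey. Filled points held at least 5 times background reads and open points fewer. The filled acrosome points lie below 0 except Spaca6 (0.30), and the Golgi genes form a tighter group around -0.31.

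Markers of meiotic germ cells moved in the same direction as the acrosome genes. All 14 pachytene markers fell (median -0.79), and their summed level was 4071 and 3700 CPM in KO, against 6067 and 6306 CPM in WT. Among them, the heat shock gene Hspa2 had a log2 fold change of -0.49 and the RNA-binding protein gene Ybx2 of -0.86. The germ cell lactate dehydrogenase gene Ldhc, one of them, fell by 0.86 on the log2 scale. Of 17 early meiotic prophase genes 15 fell (median -0.41), with a summed level of 2843 and 2876 CPM in KO, against 3965 and 4122 CPM in WT. Of 10 spermatogonial markers, from cells before meiosis, 4 fell and 0 rose (median -0.19). Their summed level was 652 and 682 CPM in KO, against 785 and 807 CPM in WT. They include Stra8, which was also counted in the early meiotic prophase list. All 10 held at least 5 times background, and the share that fell is near the 30.5% of all such genes. At an unadjusted p of 0.05, 0 rose with edgeR or DESeq2. At the adjusted threshold, 7 fell with DESeq2 or Sertoli scaling, 2 after background was subtracted with TMM anew and 1 with total gene reads (median -0.04). Of 8 Leydig cell markers 2 fell and 3 rose (median -0.12), with 580 and 603 CPM in KO, against 548 and 553 CPM in WT, while 4 fell and 1 rose with Sertoli scaling. Of 13 Sertoli cell markers 4 rose (median 0.16), with 6814 and 6681 CPM in KO, against 6125 and 6121 CPM in WT, although 1 rose and 1 fell with DESeq2 or with libraries scaled to these genes, 12 rose with total gene reads and 1 rose without WT replicate 1. All 9 macrophage markers rose (median 0.65; 7 with DESeq2), with 291 and 281 CPM in KO, against 181 and 176 CPM in WT. In bulk testis, fewer cells of a type and less RNA per cell cannot be told apart, and the part of these shifts in the fall of the acrosome genes was not tested.

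The gene whose profile over the 4 libraries lay nearest to the median profile of the 10 acrosome genes was Ldhc, at a Euclidean distance of 0.0398 between gene-centred log2 CPM values. It was followed by March10 (0.0429), Pifo (0.0432), Ccdc60 (0.0481) and Btbd16 (0.059), out of 13467 genes compared. With 4 libraries in 2 groups, the distance is a description of these libraries.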

How the data were processed

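Testes at postnatal day 17 were measured in 2 KO and 2 WT libraries, grouped by sample title. Per the labels' protocols, total RNA was converted with random plus poly(T) priming, with strand selection and depletion of unwanted transcripts. The authors deposited raw read counts, made per the file headers with featureCounts 1.6.4 on the strand of the gene over GENCODE M18 exons, and for regions of 3000 bases upstream of genes on each strand. Per the submitters' processing notes, cutadapt, HISAT2 and GRCm38.p5 were used, with versions not given in the sources used here. No option that keeps multi-mapping or multiply overlapping reads appears in the recorded commands. Member positions were identical in GENCODE M21, which gave the symbols (54079 of 54232 rows).

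Counts were tested in R 4.3.3 with edgeR 4.0.16 (filterByExpr, TMM, robust quasi-likelihood test of genotype), with Benjamini-Hochberg adjustment over all genes tested and a threshold of 0.05, and the procedure was tested on simulated data. TMM factors were 1.04 and 1.07 in KO replicates 1 and 2, and 0.955 and 0.942 in WT replicates 1 and 2. The SE is the log2 fold change divided by the square root of F. Tests of upstream regions used the gene table's library sizes and TMM factors. Background is the mean of reads per upstream region of untested autosomal genes after a fraction of 0.25 was dropped at each end. Replicates differed beyond sampling noise (chi-square per degree of freedom of 5.72 in KO and 5.02 in WT).

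The 10 genes and all lists were chosen with earlier results of these data known, so a count over a list is not independent evidence. All 10 genes are named, with up to 4 genes per acrosome list by call and level. Hyal5, Zp3r, Spam1, Izumo1, Ccin, Vps54, Pick1, Tnp1, Tnp2, Prm1, Prm2, Prm3, Catsper4, H1fnt, Txndc2, Akap4 and Actl7a were named after their values were seen. Alternatives were DESeq2 1.42.0, other scalings, filters, background subtraction, a replicate block and each library left out. A count of genes at 5 times background was added after the data were seen. The sequences are RefSeq's.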

Additional observations from a re-analysis of the deposited data

How the results depend on the processing

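The counts of the 10 genes and of the 51 further acrosome genes stayed within 1.5 times of the reported values in every alternative run. Of the 10 genes, 7 or 8 fell and 0 rose in each, and where the count was 7 the gene lost was Gopc. Leaving out 1 library gave 7 to 8 for the 10 genes and 17 to 20 for the further genes. A further gene was called higher in 4 cases, 1 each in the matrix list without WT replicate 1, the membrane list with total gene reads and without WT replicate 1, and the acroplaxome list with no filter. Of 122 single values of the 10 genes under an alternative that kept direction and side of the threshold and 5 that lost the threshold, all 5 were those of Gopc, with 0 reversed. Over all genes, 2906 were higher and 5092 lower. The count of higher genes was 427 with DESeq2, 5448 with total gene reads (2949 lower), 1761 with scaling to Sertoli cell genes (7415 lower), 1937 with no filter, 1197 with background subtracted at the library scale as counted, 1402 among genes at 5 times background, and 1324 to 2429 when a library was left out, with the lowest without KO replicate 2. The cause was not tested. Relative to TMM, all log2 fold changes moved by a median of 0.15 with total gene reads, -0.14 with Sertoli scaling, -0.11 with DESeq2 and 0.10 with background subtracted and TMM anew.

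The same replicate numbers were not shown to pair the libraries, with a correlation of deviations of 0.0257 over 17791 genes and 2 pairs. With the replicate number as a block, 8 of the 10 genes fell, 3362 genes were higher and 5469 lower. For the 6 upstream regions on the opposite strand, 1 was called with no filter and 1 with the replicate block (Zpbp2 in both), and 0 to 3 when a library was left out (Zpbp2, Spink2 and Spata16 without WT replicate 1). Acrv1 could not be fitted under the stricter filter or after background was subtracted. Background limits Acrv1, whose libraries held 8 to 21 reads at 1.18 times background. Spaca1 held 82 to 214 reads per library, with a fitted log2 fold change of -0.29 ± 0.185. Whether depth or the size of the change kept it from passing was not tested.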

Other observations

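The neighbouring actin-like genes Actl7a and Actl7b, both listed here under acroplaxome, perinuclear theca and nuclear envelope, stood far apart in level at this age. Actl7b held 133 and 128 reads in KO, against 450 and 631 reads in WT, at 80.1 times background. Actl7a, on the same chromosome, held 12 and 12 reads in KO, against 11 and 9 reads in WT, at 2.50 times background. Actl7b fell (log2 fold change -1.24 ± 0.137, edgeR adjusted p = 2.97e-07), and Actl7a did not pass (1.03 ± 0.606, adjusted p = 0.196).

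Of the 10 acrosome genes, 8 had a higher CPM in KO replicate 1 than in KO replicate 2. They included Spata16, with 41.4 and 30.7 CPM in KO replicates 1 and 2, and Zpbp, nearly equal at 27.8 and 27.7 CPM. The share over all genes was not computed, so the count has no background to be set against.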
